A study of Mus musculus with 4 samples.

Results

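The mouse genes of the chitinases, of the chitinase-like proteins and of the receptors and binding partners of CHI3L1 were followed in RNA sequencing libraries of lung group 2 innate lymphoid cells (ILC2s). The 9 genes were chosen by name out of 49315 in the table. They were *Chil1* (the mouse *Chi3l1*, which encodes CHI3L1), *Chil3*, *Chil4*, *Chia1*, *Chit1*, *Ptgdr2* (which encodes CRTH2), *Il13ra2*, *Tmem219* and *Lgals3*. The study compared wild-type (WT) C57BL/6 mice with *Hps1*-/- mice, a model of Hermansky-Pudlak syndrome on the same background, after PBS or bleomycin, a drug that injures the lung and leads to fibrosis. With PBS the groups were PBS-WT and, for *Hps1*-/- mice, PBS-HPS1, and with bleomycin they were BLEO-WT and BLEO-HPS1, with 1 library each. The methods describe both an intraperitoneal course and a single intratracheal dose of bleomycin, and neither the route nor the day, age or number of mice is tied to these libraries in the sources used here. By the methods, ILC2s were sorted as lineage-negative cells with Thy1.2, ICOS and T1/ST2, and were kept in culture with IL-2.

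CHI3L1 belongs to the glycoside hydrolase family 18 (GH18). True chitinases such as those of *Chia1* and *Chit1* cleave chitin, while chitinase-like proteins bind it without cleaving it. CHI3L1 is known to signal through IL-13Rα2 together with TMEM219, to engage CRTH2, a receptor for prostaglandin D2 that marks type 2 lymphocytes, and to bind galectin-3, the product of *Lgals3*. In the lung, CHI3L1 and Chil3 (Ym1) are made largely by macrophages, neutrophils and epithelial cells, and both are linked to type 2 inflammation and repair.

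The division between enzymes and enzyme-like proteins can be read in the genes themselves. The stretch below holds the GH18 active-site motif, from the GRCm38 exon sequence, and capitals mark the codon at the place of the glutamate that donates the proton in chitinases. All of these stretches lie in exon 5 of their coding transcript.

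*Chil1*, chr1:134185222-134185263, plus strand: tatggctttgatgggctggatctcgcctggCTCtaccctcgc

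*Chil3*, chr3:106160419-106160460, minus strand: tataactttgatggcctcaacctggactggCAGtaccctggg

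*Chil4*, chr3:106210524-106210565, minus strand: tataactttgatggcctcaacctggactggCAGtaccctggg

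*Chia1*, chr3:106122439-106122480, plus strand: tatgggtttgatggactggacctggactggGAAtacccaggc

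*Chit1*, chr1:134145325-134145366, plus strand: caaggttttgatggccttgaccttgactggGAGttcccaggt

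*Chia1* and *Chit1* carry a glutamate codon there, and the 3 chitinase-like genes carry a leucine codon (*Chil1*) or a glutamine codon (*Chil3* and *Chil4*). The 42 bases of *Chil3* and *Chil4* are identical. Over the coding sequence *Chil3* and *Chil4* shared 1141 of 1197 aligned bases (95.3%), against 77.0% for *Chil3* and *Chia1* and 68.6% for *Chil1* and *Chit1*.

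Between the near-identical pair, the coding window with the densest differences, bases 500 to 559, is shown because only reads over such bases tell the genes apart. Capitals mark the 10 bases of 60 at which they differ.

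*Chil3*: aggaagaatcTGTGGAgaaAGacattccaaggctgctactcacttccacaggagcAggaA

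*Chil4*: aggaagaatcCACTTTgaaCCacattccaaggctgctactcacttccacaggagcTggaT

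Of the 1490 windows of 50 bases along the longest transcript of either gene, 275 (18.5%) are also found in the other. The likeness reaches upstream. In the 250 bases before the RefSeq start of each gene (GRCm38.p6), 201 of 221 aligned bases are identical (91.0%), and capitals mark the aligned bases that differ or have no partner. The *Chil4* window (from 106219480) overlaps the gene span given further below, which runs to 106219507. That of *Chil3* (from 106167565) does not overlap its span, which runs to 106167564.

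*Chil3*, chr3:106167565-106167814, minus strand: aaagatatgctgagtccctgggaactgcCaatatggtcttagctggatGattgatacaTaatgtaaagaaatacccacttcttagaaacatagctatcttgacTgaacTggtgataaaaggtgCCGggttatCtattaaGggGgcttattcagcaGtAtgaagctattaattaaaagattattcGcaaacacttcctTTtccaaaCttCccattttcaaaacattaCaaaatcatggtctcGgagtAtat

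*Chil4*, chr3:106219480-106219729, minus strand: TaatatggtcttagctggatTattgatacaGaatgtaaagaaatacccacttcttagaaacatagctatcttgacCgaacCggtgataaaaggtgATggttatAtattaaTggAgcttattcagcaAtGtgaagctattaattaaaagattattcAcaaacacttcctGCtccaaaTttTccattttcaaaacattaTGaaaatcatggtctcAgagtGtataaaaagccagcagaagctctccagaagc

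The deposited values are reads per gene, and totals ranged from 72513619 to 87638154 per library. Levels are given as CPM, the reads of a gene scaled to library size, with a TMM factor that allows for differences in composition. For ratios, a prior count of 2 was added before taking log2. A gene was compared where it reached 1 CPM in at least 1 library, which 14840 genes did, and a difference was called at 2-fold. No group was replicated, so no p-value is given. The 95% intervals given are exact intervals of the reads and cover counting error only. A count of 3 reads, taken as the floor, was worth between 0.0303 and 0.0475 CPM. The targeted gene *Hps1* had 38.3 and 48.4 CPM in PBS-WT and BLEO-WT against 16.6 and 21.3 in PBS-HPS1 and BLEO-HPS1, so it was lower in both *Hps1*-/- libraries but not absent. Libraries were made from 22405 and 38873 cells for PBS-WT and PBS-HPS1 and from 84166 and 128647 cells for BLEO-WT and BLEO-HPS1, so group and cell input cannot be told apart.

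Of the ILC2 markers, 10 of the 11 in the table passed the level filter. The summed level of the list was 897 and 799 CPM in PBS-WT and PBS-HPS1 and 767 and 922 CPM in BLEO-WT and BLEO-HPS1. *Thy1*, the most abundant of them, had 306, 206, 224 and 551 CPM in that order and weighs most in the sum. In BLEO-HPS1 against PBS-HPS1 the median log2 ratio of the 10 was -0.64. There 2 were at least 2-fold higher and 3 lower, where 26.2% of all genes were higher and 19.6% lower. The markers used in the sort were present, with *Thy1* at 206 to 551 CPM, *Icos* at 32.1 to 79.9 and *Il1rl1* (T1/ST2) at 23.8 to 40.9. Genes that define other cell types were present as well. In the same order of libraries, which is kept wherever 4 values follow each other, alveolar macrophage markers (11 of 11 past the filter) summed to 3577, 3121, 2452 and 1680.2 CPM. Monocyte and interstitial macrophage markers (12 of 12) summed to 11638, 7360, 19960.2 and 20337 CPM, led by the lysozyme gene *Lyz2* at 9428, 6083, 13145 and 12343. Neutrophil markers (12 of 13) summed to 1787, 501, 982 and 518 CPM, alveolar epithelial markers (11 of 11) to 1390.1, 989.8, 822 and 529.8, and fibroblast markers (12 of 12) to 319, 473, 747 and 3287. Airway epithelial markers (9 of 11) summed to 123, 136, 81.9 and 75.6 CPM and B cell markers (6 of 6) to 86.6, 108, 96.0 and 283. In such bulk libraries, fewer cells of a type and less RNA per cell cannot be told apart.

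Of the 9 genes, 6 passed the filter: *Chil1*, *Chil3*, *Chil4*, *Chia1*, *Tmem219* and *Lgals3*. *Ptgdr2* and *Chit1* were counted below 1 CPM in every library, and *Il13ra2* was at or under the floor throughout.

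**Figure D1:**
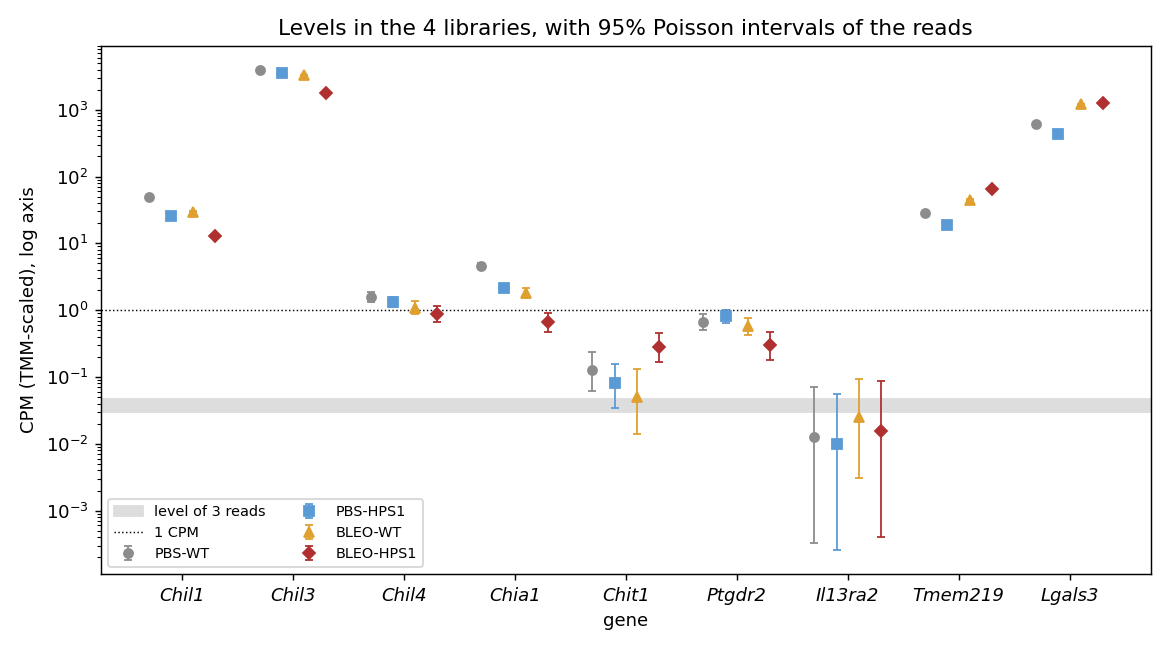
Level of each of the 9 genes in the 4 libraries, as TMM-scaled CPM on a log axis, with points for libraries and bars for exact 95% Poisson intervals of the reads (counting error only). *Chil3* and *Lgals3* sit highest, the 4 GH18 genes *Chil1*, *Chil3*, *Chil4* and *Chia1* are lowest in BLEO-HPS1 and highest in PBS-WT, and *Il13ra2* lies below the grey band that marks 3 reads.

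*Chil1* (ENSMUSG00000064246, chromosome 1, 134182176 to 134190181, plus strand) encodes CHI3L1 itself. It had 3858 reads in PBS-WT and 2581 in PBS-HPS1, against 2316 in BLEO-WT and 815 in BLEO-HPS1, or 49.5, 26.1, 29.5 and 12.9 CPM. The level was highest in PBS-WT, intermediate in BLEO-WT and PBS-HPS1 and lowest in BLEO-HPS1, and no neighbours in that order had overlapping counting intervals. *Chil1* was 1.90-fold lower in PBS-HPS1 than in PBS-WT (log2 ratio -0.92, interval -0.997 to -0.85) and 2.29-fold lower in BLEO-HPS1 than in BLEO-WT (-1.19, -1.31 to -1.08). Bleomycin libraries were below their PBS libraries in both genotypes, by 1.67-fold in WT (-0.74, -0.82 to -0.67) and by 2.02-fold in *Hps1*-/- (-1.01, -1.13 to -0.90). The last interval takes in the 2-fold mark. The bleomycin log2 ratio was lower in *Hps1*-/- than in WT by -0.27 (-0.40 to -0.13). Scaling moved these values. With totals the WT ratio was -1.01, past 2-fold, the *Hps1*-/- ratio was -1.66 and their difference was -0.65. With the GC and length correction the *Hps1*-/- ratio was -1.59 and the difference -0.69. Summed neutrophil, alveolar macrophage, alveolar epithelial, eosinophil, and basophil and mast cell markers were also highest in PBS-WT. Eosinophil markers had the order of *Chil1* (28.4, 14.1, 14.8 and 7.49 CPM). In BLEO-HPS1 against PBS-HPS1 the neutrophil markers had a median log2 ratio of 0.44, opposite in sign to *Chil1*. There 4 of the 12 compared were at least 2-fold higher and 1 lower, where 26.2% of all genes were higher and 19.6% lower. The part of all these cell types in the *Chil1* values was not tested.

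*Chil3* (ENSMUSG00000040809, chromosome 3, 106147554 to 106167564, minus strand) encodes Ym1, a lectin that forms crystals in inflamed lungs and is a classical marker of alternatively activated macrophages. It was among the most abundant transcripts of the table, ranking 8, 4, 21 and 79 of all genes by CPM in the 4 libraries. Reads numbered 306061, 353163, 261964 and 111040, which came to 3926, 3567, 3341 and 1758 CPM. The first 3 libraries lay close together and BLEO-HPS1 lay well below them. *Chil3* took 0.422%, 0.455%, 0.299% and 0.143% of all reads, and between 98.6% and 99.2% of the reads on the 5 GH18 genes studied.

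Differences of *Chil3* between the PBS libraries (log2 ratio -0.14, interval -0.15 to -0.13) and between the WT libraries (-0.23, -0.24 to -0.23) were small. BLEO-HPS1 was 2.03-fold below PBS-HPS1 (-1.02, -1.03 to -1.01) and 1.90-fold below BLEO-WT (-0.93, -0.94 to -0.92). The bleomycin log2 ratio of *Chil3* was lower in *Hps1*-/- than in WT by -0.79 (-0.80 to -0.78). With library totals in place of TMM factors, the sign between the PBS libraries turned (0.11), the BLEO-HPS1 to PBS-HPS1 ratio was -1.66, the BLEO-HPS1 to BLEO-WT ratio passed 2-fold (-1.06) and the difference of the bleomycin ratios was -1.17. A correction for GC content and length took the BLEO-HPS1 to PBS-HPS1 ratio to -0.81, inside 2-fold. Summed alveolar macrophage markers were 1680.2 CPM in BLEO-HPS1 against 2452 to 3577 in the other libraries. Of the 11, 6 were at least 2-fold lower in BLEO-HPS1 than in PBS-HPS1, where 19.6% of all genes were lower. In BLEO-WT against PBS-WT the *Chil3* ratio was -0.23 with TMM, -0.50 with totals and -0.09 after the GC and length correction. There 4 of the 11 macrophage markers were at least 2-fold lower (median log2 ratio -0.79), beside 8.22% of all genes. Their part in the *Chil3* values was not tested.

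*Chil4* (ENSMUSG00000063779, chromosome 3, 106201490 to 106219507, minus strand) encodes Ym2, the near copy of Ym1. It had only 124 reads in PBS-WT and 131 in PBS-HPS1, against 86 in BLEO-WT and 56 in BLEO-HPS1, or 1.59, 1.32, 1.10 and 0.886 CPM. The order was that of *Chil3*, but every pair of neighbours in it had overlapping intervals. Per kilobase of the longest transcript, the *Chil3* level was 2468, 2696, 3046 and 1983 times that of *Chil4*. Since the pair shares long stretches, how the authors' counting treated reads that fit both genes could decide the *Chil4* count, and its values are uncertain. *Chil4* passed 2-fold in none of the 4 comparisons, with log2 ratios of -0.26 (-0.63 to 0.10), -0.53 (-0.95 to -0.13), -0.56 (-1.06 to -0.12) and -0.30 (-0.82 to 0.19) for PBS-HPS1 to PBS-WT, BLEO-WT to PBS-WT, BLEO-HPS1 to PBS-HPS1 and BLEO-HPS1 to BLEO-WT. Scaling by totals put the third of these past 2-fold (-1.19). The difference of its bleomycin ratios between genotypes, -0.04, had an interval from -0.64 to 0.56 and was -0.41 with totals and 0.08 with the GC and length correction.

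*Chia1* (ENSMUSG00000062778, chromosome 3, 106113229 to 106132120, plus strand) encodes acidic mammalian chitinase, the enzyme that breaks down inhaled and ingested chitin. Reads were 353 in PBS-WT and 210 in PBS-HPS1, against 143 in BLEO-WT and 42 in BLEO-HPS1 (4.53, 2.12, 1.82 and 0.665 CPM). PBS-WT was highest and BLEO-HPS1 lowest, while PBS-HPS1 and BLEO-WT did not differ beyond their intervals. Of the 6 genes compared, *Chia1* alone was at least 2-fold lower in all 4 comparisons. It was 2.12-fold lower in PBS-HPS1 than in PBS-WT (log2 ratio -1.09, interval -1.35 to -0.84), 2.46-fold lower in BLEO-WT than in PBS-WT (-1.30, -1.60 to -1.03), 3.11-fold lower in BLEO-HPS1 than in PBS-HPS1 (-1.64, -2.19 to -1.19) and 2.68-fold lower in BLEO-HPS1 than in BLEO-WT (-1.42, -1.99 to -0.95). Between the PBS libraries the call was lost with scaling by totals (-0.84) and with the GC and length correction (-0.99). With totals the BLEO-HPS1 to PBS-HPS1 ratio was -2.26. The difference of its bleomycin ratios was -0.34 (-0.89 to 0.22), and -0.70 with totals. The summed alveolar epithelial markers had the same order of libraries as *Chia1*, led by the surfactant gene *Sftpc* at 816, 538, 343 and 185 CPM, but within that list *Abca3* was higher with bleomycin, with log2 ratios of 0.41 in WT and 0.57 in *Hps1*-/-, as was *Hopx* (0.73 and 0.86). The summed alveolar macrophage markers and the basophil and mast cell markers (137, 133, 63.5 and 28.2 CPM) had that order too. The part of these cells was not tested.

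*Chit1* (ENSMUSG00000026450, chromosome 1), the gene of chitotriosidase, a macrophage chitinase, had 10 reads in PBS-WT and 8 in PBS-HPS1, against 4 in BLEO-WT and 18 in BLEO-HPS1, and neighbours in order of level overlapped. BLEO-HPS1 was the highest library, unlike for *Chil1*, *Chil3*, *Chil4* and *Chia1*. The log2 ratio was 1.55 (0.55 to 3.23) for BLEO-HPS1 to PBS-HPS1 and -1.01 (-3.46 to 0.46) for BLEO-WT to PBS-WT, and the former was 0.75 with the GC and length correction. These are counts of 18 reads and fewer, in a gene below the level filter.

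Among the receptors, *Ptgdr2* (ENSMUSG00000034117, chromosome 19, 10937160 to 10942511, plus strand) encodes CRTH2. It had 52 reads in PBS-WT and 81 in PBS-HPS1, against 45 in BLEO-WT and 19 in BLEO-HPS1, or 0.667, 0.818, 0.574 and 0.301 CPM, under 1 CPM in each library. The 2 PBS libraries were highest and BLEO-HPS1 lowest, but neighbours in that order overlapped. PBS-HPS1 and PBS-WT did not differ beyond counting error (log2 ratio 0.28, interval -0.23 to 0.83), nor did BLEO-WT and PBS-WT (-0.21, -0.83 to 0.39). BLEO-HPS1 lay below PBS-HPS1 (-1.37, -2.25 to -0.71) and below BLEO-WT (-0.88, -1.79 to -0.13), and the bleomycin log2 ratio was lower in *Hps1*-/- than in WT by -1.16 (-2.09 to -0.24). With totals *Ptgdr2* passed the level filter, with a BLEO-HPS1 to PBS-HPS1 ratio of -1.98. With the GC and length correction that ratio was again -1.98, and the one to BLEO-WT was -1.26.

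The reads of *Ptgdr2* need care. Of its exon bases, 1031 (39.0%) also lie in exons of *Ccdc86* on the opposite strand, which had between 2916 and 4393 reads. Whether counting used strand is not given in the sources used here, so the reads of the shared stretch cannot be told apart. Per kilobase, *Il1rl1* stood at 30.6, 24.3, 32.4 and 39.4 times and *Icos* at 97.8, 77.3, 73.0 and 87.0 times the *Ptgdr2* level. In BLEO-HPS1 against PBS-HPS1 the sort markers did not move one way, with log2 ratios of -0.75 for *Il1rl1*, -1.27 for *Icos* and 1.42 for *Thy1*. Basophil and mast cell markers, whose cells also carry CRTH2, summed to 137, 133, 63.5 and 28.2 CPM, eosinophil markers to 28.4, 14.1, 14.8 and 7.49, and T cell markers to 715, 537, 620.2 and 1109.9. The eosinophil granule gene *Epx* had 1 read in BLEO-WT and 2 in BLEO-HPS1. Here the part of these cells in the *Ptgdr2* values was not tested.

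*Il13ra2* (ENSMUSG00000031289, X chromosome, 147383476 to 147429192, minus strand) encodes the α2 chain that binds IL-13 and CHI3L1. It had 1 read in PBS-WT and 1 in PBS-HPS1, against 2 in BLEO-WT and 1 in BLEO-HPS1. All 4 libraries were at or under the floor, so no ratio is given and a difference was not detectable at this depth.

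*Tmem219* (ENSMUSG00000060538, chromosome 7, 126886171 to 126922917, minus strand) encodes the membrane protein that acts as co-receptor of IL-13Rα2 for CHI3L1 and also binds IGFBP3. Reads numbered 2191 in PBS-WT and 1881 in PBS-HPS1, against 3490 in BLEO-WT and 4145 in BLEO-HPS1 (28.1, 19.0, 44.5 and 65.6 CPM). In contrast to *Chil1*, *Chil3*, *Chil4* and *Chia1*, the bleomycin libraries were above the PBS libraries in both genotypes, and no neighbours overlapped. *Tmem219* was 3.45-fold higher in BLEO-HPS1 than in PBS-HPS1 (log2 ratio 1.79, interval 1.71 to 1.87) and 1.58-fold higher in BLEO-WT than in PBS-WT (0.66, 0.59 to 0.74), and these bleomycin log2 ratios differed by 1.12 (1.01 to 1.23). Between genotypes it was 1.48-fold lower in PBS-HPS1 (-0.56, -0.65 to -0.48) and 1.47-fold higher in BLEO-HPS1 (0.56, 0.49 to 0.63). With the GC and length correction, the last ratio was -0.01, that of BLEO-HPS1 to PBS-HPS1 was 0.82 and the difference of the bleomycin ratios was 0.41. With totals the latter 2 were 1.14 and 0.75.

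*Lgals3* (ENSMUSG00000050335, chromosome 14, 47367751 to 47386160, plus strand) encodes galectin-3, a β-galactoside-binding lectin abundant in macrophages and linked to fibrosis. It had 47230 reads in PBS-WT and 43596 in PBS-HPS1, against 94472 in BLEO-WT and 78563 in BLEO-HPS1, or 606, 440.3, 1205 and 1244 CPM. The bleomycin libraries were again above the PBS libraries, by 1.99-fold in WT (log2 ratio 0.99, interval 0.98 to 1.01) and by 2.82-fold in *Hps1*-/- (1.498, 1.48 to 1.51). After bleomycin the genotypes lay within 1.03-fold of each other (0.05, 0.03 to 0.06). That sign turned with scaling by totals (-0.09) and with the GC and length correction (-0.46), and the BLEO-HPS1 to PBS-HPS1 ratio came to 0.85 and 0.64 under them. Without injury *Lgals3* was 1.38-fold lower in PBS-HPS1 (-0.46, -0.48 to -0.44). The bleomycin log2 ratios differed by 0.51 (0.48 to 0.53) with TMM, by 0.13 with totals and by -0.12 after the GC and length correction. The summed level of the 12 monocyte and interstitial macrophage markers had the same order of libraries. *Lyz2*, which weighs most in that sum, did not, being higher in BLEO-WT (13145 CPM) than in BLEO-HPS1 (12343). Of the 12, 9 were at least 2-fold higher in BLEO-HPS1 than in PBS-HPS1, where 26.2% of all genes were higher. In BLEO-WT against PBS-WT 7 were higher and 1 lower, where 5.28% of all genes were higher and 8.22% lower. Their part in the *Lgals3* values was not tested. Per kilobase, *Lgals3* stood at 0.167, 0.134, 0.391 and 0.767 of the *Chil3* level.

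**Figure D2:**
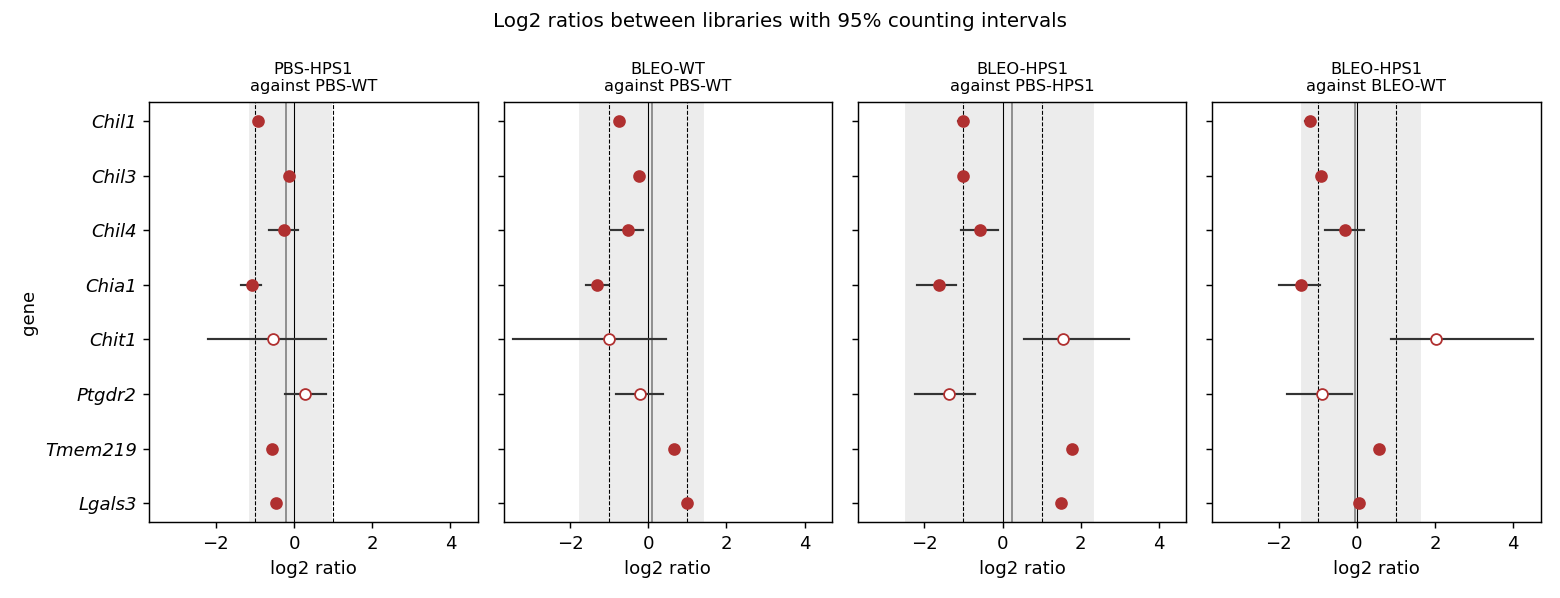
Log2 ratios of 8 genes in the 4 comparisons, with 95% counting intervals as bars, filled points for genes past the level filter and open points for *Chit1* and *Ptgdr2*; the grey band spans the central 95% of 14840 genes, the grey line is their median and dashed lines mark 2-fold. *Chia1* is beyond the lower dashed line in each panel, and *Tmem219* and *Lgals3* lie on the opposite side from *Chil1*, *Chil3*, *Chil4* and *Chia1* in the 2 bleomycin panels.

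The count of members past 2-fold was set beside the share of all genes that passed. Here and below, higher and lower refer to the library named first, and between the PBS libraries to PBS-HPS1. In PBS-HPS1 against PBS-WT it was 1 of 6, *Chia1*, which was lower, where 5.27% of 14840 genes passed in either direction, 2.16% higher and 3.11% lower. In BLEO-WT against PBS-WT it was again *Chia1* alone, also lower, where 13.5% of genes passed, 5.28% higher and 8.22% lower. In BLEO-HPS1 against PBS-HPS1 it was 5 of 6, with *Tmem219* and *Lgals3* higher and *Chil1*, *Chil3* and *Chia1* lower. However, 45.9% of all genes passed there, 26.2% higher and 19.6% lower. In BLEO-HPS1 against BLEO-WT it was 2 of 6, *Chil1* and *Chia1*, both lower, where 17.0% of genes passed, 6.72% higher and 10.3% lower. The comparisons share libraries in pairs and are not independent of each other. None of the 6 genes fell outside the central 95% of all genes in either bleomycin comparison with a PBS library, while *Chia1* lay below it for BLEO-HPS1 to BLEO-WT.

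The scaling bears on these counts. Across 14813 genes, Spearman's rho of the ratios with GC content was -0.07 between the PBS libraries and 0.43, 0.56 and 0.54 in the other comparisons as listed above. With transcript length it was 0.29, -0.19, -0.42 and -0.40. GC content was 55.0% for *Lgals3*, 56.1% for *Tmem219*, 52.0% for *Chil1*, 48.5% for *Chia1*, 45.0% for *Chil3* and 44.1% for *Chil4*, against a median of 49.8% over all genes compared. Higher and lower calls numbered 321 and 461, 783 and 1220, 3893 and 2913, and 997 and 1530 with TMM, but 657 and 303, 475 and 2007, 1360 and 5175, and 739 and 2225 by totals, which moved the median of all genes by 0.25, -0.27, -0.68 and -0.14. After the GC and length correction the last 3 splits were 838 and 807, 2721 and 1235, and 780 and 641.

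**Figure D3:**
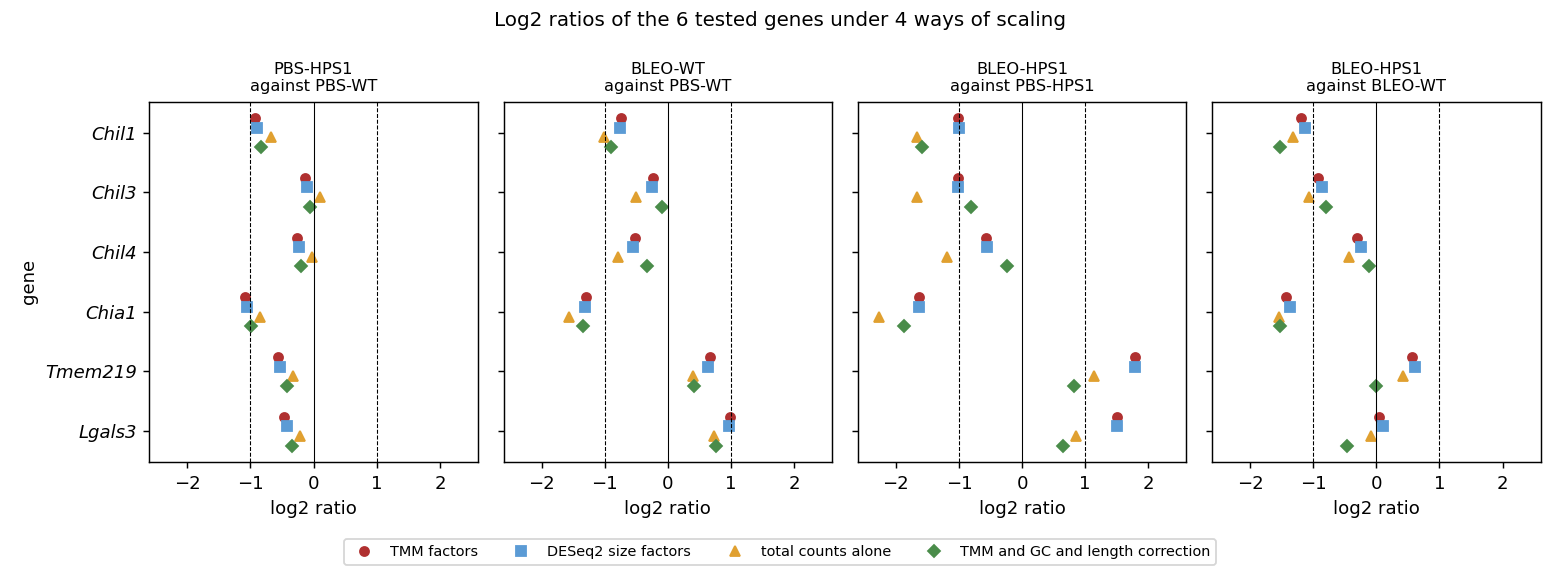
Log2 ratios of the 6 genes past the level filter under TMM factors, DESeq2 size factors, total counts and a loess correction for GC content and transcript length, 1 panel per comparison, with dashed lines at 2-fold. *Chil1*, *Chil4* and *Chia1* stay below 0 under all 4, though *Chil4* comes to -0.02 with totals between the PBS libraries. For BLEO-HPS1 against BLEO-WT, *Tmem219* and *Lgals3* reach 0 or below after the correction, and *Lgals3* also with totals (-0.09).

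Genes outside the family were ranked by likeness of pattern. By root mean square difference of centred log2 CPM over the 4 libraries, among 9885 genes reaching 10 CPM, the patterns most like that of *Chil1* were *Igsf6* (0.053), *Alox15* (0.084), a lipoxygenase gene that is also on the eosinophil marker list, and *Gk* (0.12). For *Chil3* they were *Rhot1* (0.0055), *Clip1* (0.011) and *Cast* (0.013). For *Tmem219* they were *Got2* (0.019), *Ndufc1* (0.020) and *Chmp6* (0.021), and for *Lgals3* they were *Dtnbp1* (0.019), *Crat* (0.037) and *Ctnnbip1* (0.044). With 4 libraries, close matches among so many genes are a description only.

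The other genes of the pathway were read from lists. In BLEO-HPS1 against PBS-HPS1 the median log2 ratio was -0.75 for the other GH18 genes, 0.32 for the prostaglandin D2 pathway and 0.38 for the IL-4 and IL-13 receptor chains. It was 1.89 for the other galectins, 0.14 for the other partners and 1.96 for alternative activation, beside 0.25 over all genes compared. Of the other GH18 genes, 4 of 5 passed the filter. In BLEO-HPS1 against PBS-HPS1 1 was at least 2-fold higher and 2 were lower, where 26.2% of all genes were higher and 19.6% lower. None passed between the PBS libraries, where 5.27% of all genes did. One further comparison each, BLEO-WT against PBS-WT and BLEO-HPS1 against BLEO-WT, had 1 lower, where 8.22% and 10.3% of all genes were lower. *Chid1*, a chitinase-domain gene, stood at 22.5, 19.3, 30.9 and 49.7 CPM, opposite in direction to *Chil1* and *Chil3* after bleomycin. *Ovgp1*, the oviductal glycoprotein gene, had 80, 130, 46 and 10 reads, with a log2 ratio of -2.87 for BLEO-HPS1 against PBS-HPS1.

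Prostaglandin D2 is the classical ligand of CRTH2, and 8 of 9 genes of its synthesis, transport and breakdown passed the filter. *Ptgs2*, the inducible cyclooxygenase, had 145, 144, 128 and 39.0 CPM, and *Ptgs1*, the constitutive one, had 9.47, 8.36, 53.1 and 60.3 CPM. *Ptgs2* thus stood apart in BLEO-HPS1 alone (log2 ratio -1.88 to PBS-HPS1), while *Ptgs1* was higher in both bleomycin libraries (2.85 in *Hps1*-/- and 2.49 in WT). Of the 8, 2 were at least 2-fold higher and 1 lower in BLEO-HPS1 than in PBS-HPS1, where 26.2% of all genes were higher and 19.6% lower. Likewise 2 were higher and 1 lower in BLEO-WT than in PBS-WT, where 5.28% of all genes were higher and 8.22% lower. Between the PBS libraries 1 was lower (3.11% of all genes), and 2 were lower in BLEO-HPS1 than in BLEO-WT (10.3% of all genes). *Ptgdr*, the other prostaglandin D2 receptor, had 4 reads or fewer in each library.

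For the IL-4 and IL-13 receptor chains and their signalling genes, which share the ligand of IL-13Rα2, all 9 passed the filter. None passed 2-fold between the PBS libraries or between the WT libraries, where 5.27% and 13.5% of all genes passed. In BLEO-HPS1 against PBS-HPS1 1 was higher and 1 lower, where 26.2% of all genes were higher and 19.6% lower. In BLEO-HPS1 against BLEO-WT 2 were lower, where 10.3% of all genes were. *Jak1*, a kinase of these receptors, had 467, 455, 435 and 318 CPM. *Jak2* had 123, 120.04, 105 and 46.6, a log2 ratio of -1.37 for BLEO-HPS1 against PBS-HPS1.

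Of the other galectins, 5 of 8 passed the filter. In BLEO-HPS1 against PBS-HPS1 3 were at least 2-fold higher and 2 lower, where 26.2% of all genes were higher and 19.6% lower. In the other comparisons 0 of 5 passed 2-fold, where 5.27% to 17.0% of all genes did. *Lgals1*, the gene of galectin-1, had 238, 157, 469 and 876 CPM, the same order of libraries as *Lgals3*. Its log2 ratio was 2.48 for BLEO-HPS1 against PBS-HPS1 and 0.90 for BLEO-HPS1 against BLEO-WT. Fibroblast markers were 3287 CPM in BLEO-HPS1 against 319 to 747 in the other libraries, and their part was not tested.

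All 7 other partners of CHI3L1 and TMEM219 passed the filter. In BLEO-HPS1 against PBS-HPS1 1 was higher and 1 lower, where 26.2% of all genes were higher and 19.6% lower. In BLEO-WT against PBS-WT 1 was higher, where 5.28% of all genes were. The other comparisons had 0 past 2-fold, where 5.27% and 17.0% of all genes passed. *Cd44*, a hyaluronan receptor, had 813, 662, 590.1 and 330.1 CPM, and *Itgb5*, an integrin β chain, had 164, 132, 534 and 647 CPM. Their differences with bleomycin had opposite signs, with log2 ratios for BLEO-HPS1 against PBS-HPS1 of -1.004 and 2.29.

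Genes of alternative activation, the macrophage state for which *Chil3* is commonly used as a marker, were counted in the same way. Of 9 past the filter, 7 were at least 2-fold higher and 1 lower in BLEO-HPS1 than in PBS-HPS1, where 26.2% of all genes were higher and 19.6% lower. In BLEO-WT against PBS-WT 4 were higher and 1 lower, where 5.28% of all genes were higher and 8.22% lower. Between the PBS libraries 1 was lower (3.11% of all genes). In BLEO-HPS1 against BLEO-WT 1 was higher and 1 lower, where 6.72% of all genes were higher and 10.3% lower. *Arg1*, the arginase gene, had 8.34, 4.59, 387 and 257 CPM, with log2 ratios of 5.80 in *Hps1*-/- and 5.53 in WT. *Mrc1*, the mannose receptor gene, had 647, 621, 702 and 266 CPM and was lowest in BLEO-HPS1, as *Chil3* was.

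**Figure D4:**
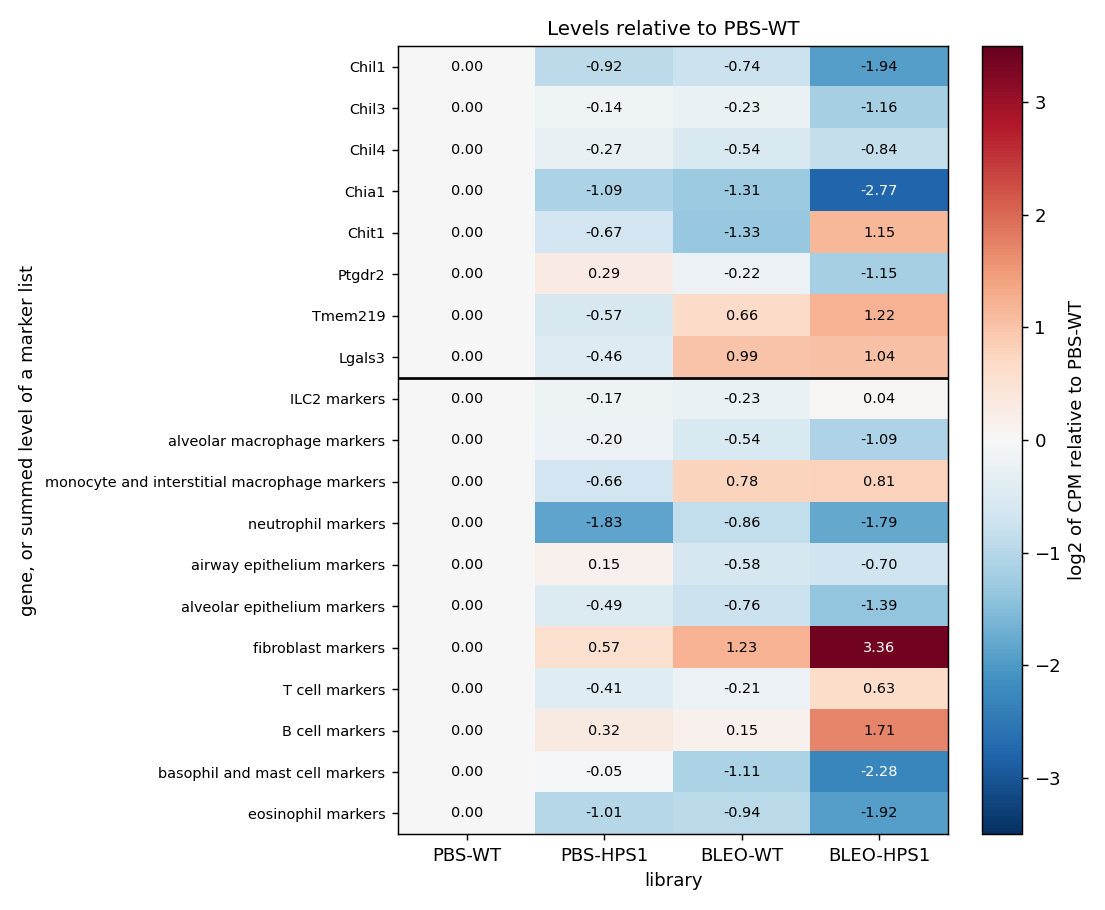
Log2 of the CPM of 8 genes, and of the summed CPM of each marker list, relative to PBS-WT (no prior count), in the 4 libraries, with blue below and red above PBS-WT. *Chil3* and alveolar macrophage markers are at -1.16 and -1.09 in BLEO-HPS1 and at -0.23 and -0.54 in BLEO-WT. Alveolar epithelial (-1.39), neutrophil (-1.79), eosinophil (-1.92) and basophil and mast cell markers (-2.28) are also low in BLEO-HPS1. In PBS-HPS1 these lists are at -0.49, -1.83, -1.01 and -0.05 in that order, and *Chil3* is at -0.14. In BLEO-HPS1 *Lgals3* and monocyte and interstitial macrophage markers, in whose sum *Lyz2* weighs most, are at 1.04 and 0.81. Fibroblast markers are at 3.36 there.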

How the data were processed

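The authors deposited raw counts of reads for 49315 Ensembl genes in 4 libraries made with a SMARTER mRNA kit. The aligner, counter, build and strand setting are not given in the sources used here. Positions, transcripts, GC content and exon overlaps came from GENCODE M21 (GRCm38), in which 48970 identifiers were found. Upstream sequences came from RefSeq. No gene name was given for 174 rows.

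Counts were scaled by TMM (edgeR 4.0.16, R 4.3.3) and compared as log2 CPM with a prior count of 2. Intervals are exact (Clopper-Pearson for ratios, Poisson for levels), or from the delta method for differences of ratios, all at 95%. The intervals cover counting error of the reads only. PCR copies of a molecule were not separated, so reads may not be independent and the intervals may be too narrow. With 1 library per group no count model could be fitted, and the spread between mice is unknown. Steps were tested on simulated data.

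The members and lists were chosen with earlier results of these data known. Beside the members, the text names the most abundant gene and the gene with the largest ratio of each pathway list, the 2 most abundant genes of each marker list with defining markers at or under the floor, and the 3 genes most alike in pattern to tested members. Outside that rule, *Icos*, *Il1rl1*, *Ptgdr*, *Chil6*, *Hopx*, *Ccdc86* and *Hps1* were added after their values were seen. Alternatives were DESeq2 1.42.0 size factors, totals alone, a prior count of 0.5 or 10, leaving out the filter, requiring 10 counts in each library, a loess correction (span 0.3) for GC content and transcript length, a log2 threshold of 2, and summed *Chil3* and *Chil4* reads.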

Additional observations from a re-analysis of the deposited data

Results flagged for a closer look

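With TMM factors, some values differed in opposite directions between bleomycin and PBS in the *Hps1*-/- and in the WT libraries. With totals the median of all genes moved by -0.68 for BLEO-HPS1 against PBS-HPS1 and by -0.27 for BLEO-WT against PBS-WT. Those moves exceed the positive ratios below of *Mrc1* and *Scgb1a1* in WT and of neutrophil markers and the other partners in *Hps1*-/-. The signs of these may depend on the scaling. With 1 library per group the difference between genotypes was not tested for any of the values. The log2 ratio of bleomycin to PBS for *Chit1* was 1.55 in *Hps1*-/- and -1.01 in WT, on 18 reads or fewer. For *Mrc1* it was -1.23 and 0.12, for *Thy1*, one of the sort markers, 1.42 and -0.46, for *Scgb1a1*, the club cell secretoglobin gene, -0.57 and 0.0813, and for *Cd3g*, a T cell receptor component, 1.08 and -0.50. Median ratios of gene lists did the same, at 1.04 and -0.18 for T cell markers, 0.90 and -0.0275 for B cell markers, 0.44 and -0.86 for neutrophil markers, and 0.14 and -0.16 for the other partners of CHI3L1 and TMEM219.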

How the results depend on the processing

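No paired analysis was possible because each group had 1 library. Across the alternatives that can move a ratio, 120 of 124 ratios of the 6 compared genes kept their direction and 115 kept their side of 2-fold. With totals 2 changed direction and 5 changed side, with the GC and length correction 2 and 4, and with the other alternatives 0. Between the PBS libraries, 0 members passed with totals, with the GC and length correction or at a log2 threshold of 2. From BLEO-WT to PBS-WT, 2 passed with totals (*Chil1* gained) or with no filter (*Chit1*). From BLEO-HPS1 to PBS-HPS1, 2 passed after the correction, 6 with totals (*Chil4* and *Ptgdr2* gained, *Lgals3* lost), 7 with no filter (*Chit1* and *Ptgdr2*) and 6 with 10 counts required in each library (*Ptgdr2*). From BLEO-HPS1 to BLEO-WT, 3 passed with totals (*Chil3* gained) or with no filter (*Chit1*). At a log2 threshold of 2, 0 passed in any comparison. Over all genes in the order of comparisons used above, that threshold left 190, 439, 1464 and 284 genes, and no filter gave 8710, 8747, 17659 and 7657, split into 6769 higher and 1941 lower, 2417 and 6330, 5401 and 12258, and 3389 and 4268. The correction left 3956 genes from BLEO-HPS1 to PBS-HPS1 and 1421 from BLEO-HPS1 to BLEO-WT. The cause was not tested. Depth limits *Il13ra2*, *Chit1* and *Ptgdr2*.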

Other observations

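The most abundant genes of each marker list give the levels of the other cell types beside the chitinase family, in CPM for PBS-WT, then PBS-HPS1, BLEO-WT and finally BLEO-HPS1. *Itgax*, an integrin of alveolar macrophages and dendritic cells, was level in 3 libraries and lower in PBS-HPS1 (713, 545, 741 and 767), and *Csf1r*, the macrophage growth factor receptor gene, was highest after bleomycin (642, 379, 1347 and 1603). The neutrophil genes *S100a9* (517, 109, 287 and 103) and *Csf3r* (314, 152, 178 and 99.8) were highest in PBS-WT. Collagen genes of fibroblasts were highest in BLEO-HPS1, with *Col1a1* at 38.2, 75.1, 169.9 and 982 and *Col1a2* at 45.3, 88.8, 152 and 813. *Il7r*, which ILC2s share with T cells, stood at 179.6, 205, 149 and 76.9.

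Lymphocyte receptor genes were also highest in BLEO-HPS1, with *Cd4* at 104, 70.4, 106 and 157, *Cd3g* at 136, 80.4, 96.2 and 169.8, the B cell gene *Cd79a* at 23.7, 30.2, 35.5 and 124 and *Cd79b* at 18.0, 17.5, 20.5 and 81.7. Epithelial genes varied less for *Abca3* (109, 90.2, 145 and 134) and *Scgb1a1* (41.8, 55.8, 44.2 and 37.4) than for *Epcam* (61.8, 41.5, 20.6 and 19.2). The histamine gene *Hdc* (89.1, 104, 52.8 and 20.8), the basophil protease gene *Mcpt8* (11.6, 6.27, 1.49 and 1.14) and the eosinophil genes *Ccr3* (6.79, 3.43, 0.599 and 0.522) and *Alox15* (16.8, 7.97, 8.79 and 4.35) were lowest in BLEO-HPS1. Among markers at or under the floor of 3 reads, the neutrophil elastase gene *Elane* had 2 reads in BLEO-WT, and the mucin gene *Muc5ac* had 0 reads in PBS-WT and 1 in BLEO-WT. *Chil6*, a GH18 gene, had 0 reads in both bleomycin libraries.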
